A study of Mus musculus with 25 samples.

Results

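Messenger RNA of 8 genes of glucocorticoid signalling was followed in perigonadal white adipose tissue (pgWAT) of 25 male C57BL6/J mice, 1 Agilent single-colour array per mouse. The genes were both corticosteroid receptors (Nr3c1, Nr3c2), the enzyme that regenerates active glucocorticoid inside cells (Hsd11b1), and genes known as glucocorticoid targets (Fkbp5, Tsc22d3, Zbtb16, Sgk1, Cdkn1a). The genes were chosen with earlier results of these data known. Their probes were taken by name: all that the array design assigns to these symbols, 19 of 56605 probes, for 8 of 37074 gene names. Of these probes, 17 were among the 40561 in the authors' table of normalised values. The remaining probes, Tsc22d3 A_55_P2719913 and Sgk1 A_52_P352246, were well above background on 0 arrays, with median raw intensities of 20 and 19, and have no level here.

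Mice had been fasted for 24 h and refed for 18 h with 20% glucose in the drinking water, a regimen that activates ChREBP, the carbohydrate-sensing transcription factor made from Mlxipl. The ChREBPβ line carried a CRISPR deletion of the exon specific to the β isoform in all tissues (ChREBPβ KO, 6 arrays) and was compared with wild-type littermates (ChREBPβ WT, 7 arrays). The total ChREBP line was Mlxipl-null and lacked ChREBPα and ChREBPβ in all tissues (total KO, 5 arrays), with its own wild types (total WT, 7 arrays). Ages were not given in the sources used here, each array was 1 animal, and all 4 groups were represented in every one of the 4 wash batches.

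Glucocorticoids enter cells freely and bind the glucocorticoid receptor, which sits in the cytosol with heat shock proteins and immunophilins, moves to the nucleus and binds palindromic response elements in DNA. The mineralocorticoid receptor binds the same hormones and the same elements. In white adipose tissue the hormones promote adipocyte differentiation, adjust lipolysis and lipid synthesis and restrain inflammation, and 11β-hydroxysteroid dehydrogenase type 1, made from Hsd11b1, reactivates the inert 11-keto steroid locally.

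Promoter sequences are shown because the members are grouped by a hormone response and the study is about a factor that binds E-boxes. RefSeq promoters on GRCm38.p6, 250 bases before to 50 after a start, were at hand for 6 of the 8 genes (14 promoters), all but Nr3c1 and Zbtb16. The full glucocorticoid response element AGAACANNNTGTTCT, which reads alike on both strands, was found in 3 of 32851 promoters, and 1 of these was an Sgk1 promoter. A single arm, AGAACA or TGTTCT on either strand, was in 19% of all promoters, and among the members in 3 of the 6 Sgk1 promoters and 1 of the 3 Tsc22d3 promoters. The E-box CACGTG was in 7.15% of all promoters, and among the members in the same Sgk1 promoter and in Fkbp5. The spaced pair CACGTGNNNNNCACGTG, an exact form of the carbohydrate response element, was in 0 of the 32851 windows. Only this spelling was searched, so the count does not show that variants of the element are absent. These are matches of letters in a window and not sites of binding. The stretches follow, with the full element and E-box in capitals for Sgk1 (chr10:21993640-21993759, plus strand), the arm in capitals for Tsc22d3 (chrX:140600677-140600731, minus strand) and the E-box in capitals for Fkbp5 (chr17:28486288-28486342, minus strand).
Sgk1: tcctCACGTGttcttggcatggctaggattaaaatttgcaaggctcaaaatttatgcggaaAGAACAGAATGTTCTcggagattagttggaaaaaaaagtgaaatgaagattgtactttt
Tsc22d3: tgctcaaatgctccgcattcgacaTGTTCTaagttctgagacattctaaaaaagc
Fkbp5: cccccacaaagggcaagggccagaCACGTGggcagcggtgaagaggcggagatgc

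All levels are log2 values after the authors' quantile normalisation. Differences are log2 differences from limma with wash batch as a term, with p-values adjusted over all 40561 probes by Benjamini-Hochberg. A probe below 0.05 is called, a gene with such a probe is called, and a gene is described by its brightest probe unless another is named. Probe positions are those of the array design, on mm9.

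The arrays were alike in quality, with 73% to 77.9% of spots well above background on each, and no gene spot was saturated. The knockout was visible in the brightest Mlxipl probe, which was lower by 1.77 in total KO than in total WT (-1.77, SE 0.14, adjusted p = 1.11e-08). Of its other probes A_55_P2728555 was at -0.66 (adjusted p = 0.00103) and A_55_P2045158 at 0.08 (adjusted p = 0.695). In ChREBPβ KO the brightest Mlxipl probe, A_55_P2119957, differed by -0.74 (SE 0.13, adjusted p = 0.116). There A_55_P2728555 was at -0.47 (adjusted p = 0.255) and A_55_P2045158 at -0.055 (adjusted p = 0.896). Which isoforms each probe detects was not checked. Markers of neighbouring organs varied widely between arrays. The mean level of 8 liver markers ran from 13.5 to 16.6 in ChREBPβ WT, 12.0 to 16.1 in ChREBPβ KO, 8.95 to 14.2 in total WT and 8.64 to 9.79 in total KO. The mean of 6 kidney markers reached 10.9 in ChREBPβ WT and stayed between 6.44 and 6.89 in total KO. Of 8 epididymis and vas deferens markers only 2 were in the table, and their mean reached 15.6 in total WT replicate 2 against at most 8.87 in total KO. The mean of 8 adipocyte markers was 16.1 to 16.2 in all 5 total KO arrays and 15.8 to 16.1 in total WT, with every total KO array above every total WT array. Since these are pieces of whole tissue, fewer cells of a type and less RNA per cell cannot be told apart.

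Against total WT, total KO had lower Hsd11b1 and Sgk1 and higher Tsc22d3, Zbtb16 and Nr3c1. In total KO against total WT, 7 of the 17 member probes, or 41.2%, were called, 5 higher and 2 lower, beside 8.79% of all probes (5.35% higher and 3.44% lower). They belonged to 5 of the 8 genes, beside 2851 of all 26420 genes. At an unadjusted p under 0.05 there were 9 probes of 6 genes, beside 20.3% of all probes. The median difference over the 8 brightest probes was 0.31, against 0.02 over all probes. For 5 of the 17 probes, or 29.4%, all arrays of one genotype lay on one side of the other, beside 6.80% of all probes. Since the members were chosen with earlier results of these data known, these shares are a description and not independent evidence.

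**Figure D1:**
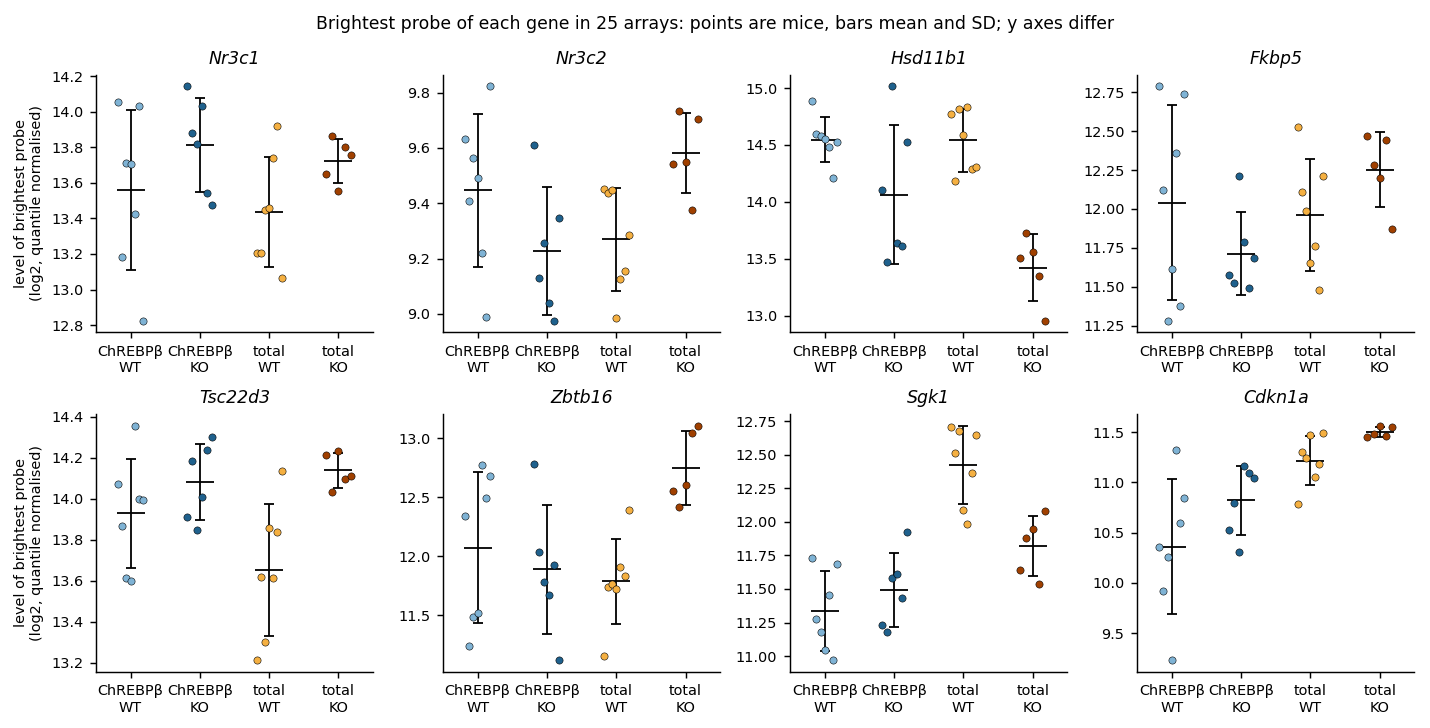
Log2 level of the brightest probe of each gene (y axis, scales differ) in the 4 groups (x axis); each point is 1 mouse, the long bar the mean and the error bar the SD. All 5 total KO arrays lie below all 7 total WT arrays for Hsd11b1 and above them for Zbtb16, and Sgk1 is highest in total WT.

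Among the genes of hormone supply and reception, Hsd11b1 changed most. Its only probe (chr1:195048169-195048228) read 12.96, 13.35, 13.51, 13.56 and 13.73 in the 5 total KO arrays, and from 14.18 to 14.83 with a median of 14.59 in total WT. The groups did not overlap. The difference was -1.14 (SE 0.20, 95% interval -1.56 to -0.73, adjusted p = 0.000587), so that total WT was 2.21-fold higher. The order of the group means was total KO (13.42), ChREBPβ KO (14.06), total WT (14.54) and ChREBPβ WT (14.55), of which both wild types lay within each other's spread. Within the 4 wash batches the difference was -1.17, -0.62, -1.60 and -1.03. Hsd11b1 is also a strongly expressed liver gene. Of the 8 liver markers 7 had a negative difference in total KO, of which Fgb, a fibrinogen chain, was called (-3.89, adjusted p = 0.0402), while the cytochrome Cyp2e1 was higher (0.95, adjusted p = 0.00557). In total WT replicates 5 and 8, whose liver markers averaged 9.37 and 8.95 and so lay inside the range of total KO, Hsd11b1 read 14.59 and 14.31, above all total KO arrays. With the mean liver level as a covariate the difference was -0.93 (adjusted p = 0.0112), and with liver, kidney and epididymis levels as covariates -0.89 (adjusted p = 0.0251). The liver level itself differed with group (8.64 to 9.79 in total KO, 8.95 to 14.2 in total WT). Whether liver RNA in the samples accounts for part of the Hsd11b1 difference was not tested.

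Of the receptors, Nr3c1 encodes the glucocorticoid receptor and was bright on both of its probes, on chromosome 18. Probe A_55_P1967885 read 13.61, 13.62, 13.64, 13.69 and 13.70 in total KO and 13.17 to 13.54 with a median of 13.42 in total WT, with no overlap. It rose by 0.27 (SE 0.06, adjusted p = 0.00632), a 1.21-fold change and the smallest among the called probes. The order of its group means was total WT (13.38), total KO (13.65), ChREBPβ WT (13.68) and ChREBPβ KO (13.79). The total KO arrays thus lay within the range of ChREBPβ WT (13.55 to 13.88). The other probe, A_55_P2728068, was as bright and differed by 0.29 (SE 0.11), but its groups overlapped and it was not called (adjusted p = 0.109). With the liver level as a covariate the first probe was at 0.19 and no longer called (adjusted p = 0.0926), and in a fit of the total ChREBP arrays alone it was at 0.27 with an adjusted p of 0.0573. Nr3c2 encodes the mineralocorticoid receptor. Its brightest probe (chr8:79768704-79768763) read 9.37, 9.54, 9.55, 9.71 and 9.73 in total KO and 8.99 to 9.45 in total WT. The difference of 0.30 (SE 0.13, interval 0.03 to 0.57) was not called (adjusted p = 0.185), nor were those of 0.10 and 0.23 on its dimmer probes.

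The target genes split in direction. Tsc22d3 encodes GILZ, a leucine zipper protein that carries part of the anti-inflammatory action of glucocorticoids. Its probe A_55_P2741276 (chrX:137074801-137074860) read 13.01, 13.15, 13.18, 13.22 and 13.36 in total KO, above all total WT arrays at 12.09 to 12.73. It rose by 0.67 (SE 0.13, adjusted p = 0.00193) or 1.59-fold. The brighter probe A_55_P1989061 (chrX:137074094-137074153) rose by 0.52 (SE 0.13, adjusted p = 0.0103), with overlap, since total WT reached 14.13 and total KO began at 14.03. Its group means were 13.65 in total WT, 13.93 in ChREBPβ WT, 14.08 in ChREBPβ KO and 14.14 in total KO. On it the total KO arrays lay within the range of ChREBPβ WT (13.60 to 14.36). On A_55_P2741276 the means were 12.53, 12.68, 12.84 and 13.19 in the same order of groups. In a fit of the total ChREBP arrays alone the brighter probe was not called (0.50, adjusted p = 0.0896), whereas the other was (0.63, adjusted p = 0.00783). All 4 wash batches had the same sign on both probes, from 0.39 to 0.77.

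Zbtb16 encodes PLZF, a zinc finger repressor whose RNA is among the most glucocorticoid-sensitive in many tissues. Its brighter probe A_55_P2024155 (chr9:48462419-48462478) read 12.42, 12.56, 12.60, 13.05 and 13.11 in total KO and 11.15 to 12.39 with a median of 11.77 in total WT. The groups did not overlap. The gene rose 2-fold, by 1.00 (SE 0.28, adjusted p = 0.0298), and by 0.79 to 1.24 in the 4 wash batches. The dimmer probe A_66_P119534 rose by 0.78 (SE 0.24, adjusted p = 0.0494), also without overlap. The array design gives that probe of 60 bases the span chr9:48473399-48525415 on the minus strand. As the span is far longer than the probe, it may cross an exon junction, which was not checked. Its sequence is shown for that reason.
Zbtb16 A_66_P119534: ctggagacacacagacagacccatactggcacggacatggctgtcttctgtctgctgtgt
A probe named Gm32280 (chr9:48485262-48485322), listed in the opposite orientation, lies between these positions and was looked up after its values were seen. It rose by 1.66 in total KO (SE 0.34, adjusted p = 0.00257), and the effect exceeded that in the ChREBPβ line by 2.05 (SE 0.47, adjusted p = 0.0142). Whether its signal shares transcripts with Zbtb16 was not tested.

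Sgk1 encodes a serum- and glucocorticoid-regulated kinase that acts on ion channels and metabolism. In total KO its measured probe (chr10:21719390-21719449) read 11.53, 11.64, 11.88, 11.95 and 12.08, and in total WT 11.98 to 12.71 with a median of 12.51, so that 4 of 5 total KO arrays were below all total WT arrays. It fell by 0.58 (-0.58, SE 0.15, adjusted p = 0.0192), with -0.68, -0.56, -0.09 and -1.04 in the wash batches. Its sign was thus opposite to that of Tsc22d3 and Zbtb16 in this contrast.

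The mean liver level was also set beside these results. With it as a covariate the changes were 0.32 for the brighter Tsc22d3 probe (adjusted p = 0.139), 0.53 for the other (adjusted p = 0.0321), 0.59 for Zbtb16 (adjusted p = 0.285) and -0.56 for Sgk1 (adjusted p = 0.0800). In total WT replicates 5 and 8, with liver means inside the range of total KO, the brighter Tsc22d3 probe read 13.86 and 14.13, Zbtb16 read 11.72 and 12.39 and Sgk1 read 12.09 and 12.65. Replicate 8 was thus the highest of total WT for Tsc22d3 and Zbtb16. Replicate 2 had the highest epididymis (15.6) and liver (14.2) means of total WT. It was the lowest of total WT for Nr3c1 A_55_P1967885, both Tsc22d3 probes and both Zbtb16 probes. Without it Nr3c1 and Tsc22d3 were called and Zbtb16 was not. With the liver covariate the directions of all called members stayed, and Hsd11b1 and Tsc22d3 were the members still called. Leaving out 1 array at a time, the brighter Zbtb16 probe lost its call in 5 of 25 fits (total KO replicates 3, 4 and 7, total WT replicates 2 and 7; highest adjusted p = 0.0842) and Sgk1 in 3 (total KO replicates 1 and 4, total WT replicate 4; highest adjusted p = 0.103).

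**Figure D2:**
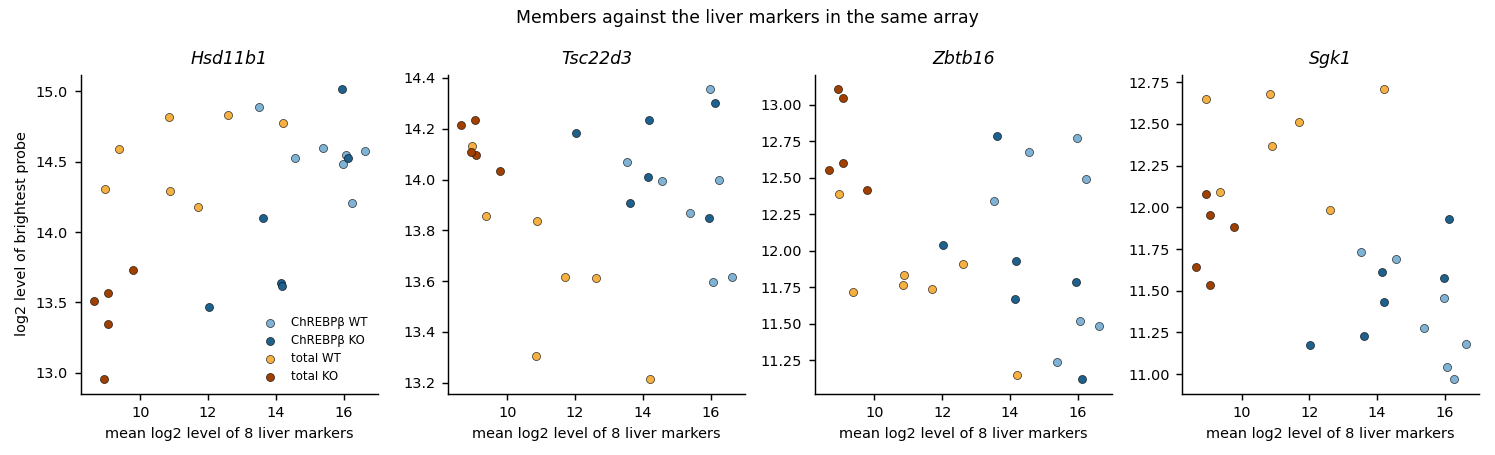
Log2 level of the brightest probe of 4 genes (y axis) against the mean log2 level of 8 liver markers in the same array (x axis); each point is 1 mouse. The 5 total KO arrays lie at 8.64 to 9.79 on the x axis. Hsd11b1 in the total WT arrays with liver means of 8.95 and 9.37 lies above all of them. What liver RNA contributes to these levels was not tested.

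Fkbp5 and Cdkn1a were not called in the total ChREBP line. Fkbp5 encodes FKBP51, the co-chaperone that lowers the hormone affinity of the receptor and is itself induced by it, and its probes differed in sign: 0.31 for the brightest (adjusted p = 0.509), -0.42 for A_52_P481493 (adjusted p = 0.28) and -0.06 for A_66_P107081 (adjusted p = 0.919). Cdkn1a encodes the cell cycle inhibitor p21, a target of both p53 and the glucocorticoid receptor. Its brightest probe (chr17:29237377-29237436) read 11.45, 11.46, 11.48, 11.55 and 11.56 in total KO and 10.78 to 11.49 in total WT, a difference of 0.34 (SE 0.22, interval -0.11 to 0.80, adjusted p = 0.429). On this probe the 5 total KO arrays were much closer together (SD 0.05) than those of total WT (SD 0.25) or ChREBPβ WT (SD 0.67). On the dim probe A_55_P1976204 the SD was 0.38 in total KO and 0.36 in total WT. That probe differed by -0.19 (adjusted p = 0.724), and A_55_P1986282 by 0.02 (adjusted p = 0.927).

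In the ChREBPβ line no member was called, beside 0% of all probes. The smallest adjusted p among the 17 probes was 0.396. At an unadjusted p under 0.05 there were 4 probes of 3 genes, beside 9.02% of all probes, and for 0 of the 17 did the groups not overlap, beside 0.0690% of all probes. The 4 were both Nr3c1 probes, at 0.13 and 0.31, Hsd11b1 at -0.51 (SE 0.19, interval -0.91 to -0.11, adjusted p = 0.43) and Cdkn1a at 0.47 (SE 0.21, interval 0.04 to 0.90, adjusted p = 0.51).

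Hsd11b1 was the most uneven member in ChREBPβ KO. It read 13.47 to 15.02 with a median of 13.87, against 14.21 to 14.89 with a median of 14.55 in ChREBPβ WT. Of the 6 knockout arrays, 4 lay below all wild types and 1 (replicate 4) above them. The within-batch differences ran from 0.00 in the first wash batch to -1.13 in the second, and the liver mean was 15.96 in replicate 4, 16.13 in replicate 8, where Hsd11b1 read 14.53, and 12.0 to 14.2 in the others. Zbtb16 changed sign between wash batches in this line: 0.79 and 0.80 in the first and second, -0.75 and -1.20 in the remaining batches. In ChREBPβ WT it read 11.24 to 11.52 in the first and second wash batches and 12.34 to 12.77 in the others, and its mean difference of -0.16 (SE 0.27) joins these. The wash batches were scanned on 2 days, the first and second on 1 day and the others on another, so wash batch and scan day cannot be told apart in this pattern of Zbtb16. The brightest Fkbp5 probe also varied in sign, with 0.44, -0.60, -0.29 and -0.96 in the 4 batches.

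**Figure D3:**
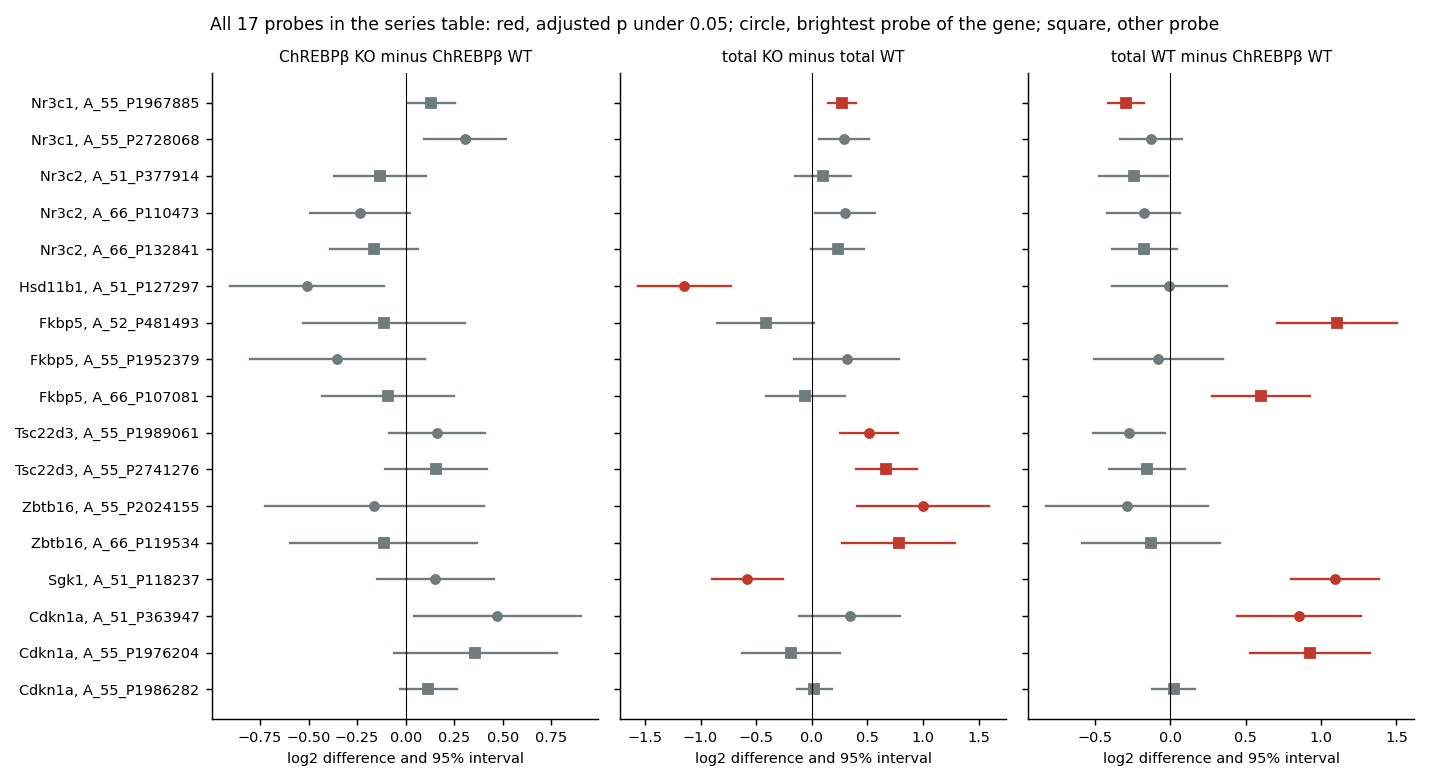
Log2 difference (x axis, scales differ between panels) with its 95% interval for each of the 17 probes (y axis) in 3 comparisons; red marks an adjusted p under 0.05, circles the brightest probe of a gene and squares its other probes. No probe is red in the ChREBPβ line, 7 are red for total KO against total WT and 6 for total WT against ChREBPβ WT.

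The test of whether total loss acted differently from β loss called none of the 17 probes, beside 3.21% of all probes (1.29% higher and 1.92% lower). Unadjusted p-values under 0.05 were found for 8 probes of 6 genes, beside 12.8% of all probes. Sgk1 came closest, at -0.73 (SE 0.21, interval -1.17 to -0.29, adjusted p = 0.0644), with 0.15 in the ChREBPβ line and -0.58 in the total ChREBP line. Zbtb16 was at 1.16 (SE 0.39, adjusted p = 0.135), Nr3c2 at 0.53 (SE 0.18, adjusted p = 0.128), the second Tsc22d3 probe at 0.52 (adjusted p = 0.168) and Hsd11b1 at -0.64 (SE 0.28, adjusted p = 0.309). The lines are therefore not shown to differ for any member, and the intervals leave room for large differences.

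The wild types of the lines also differed. Total WT had more Sgk1 and Cdkn1a than ChREBPβ WT, and on probes other than the brightest also more Fkbp5 and slightly less Nr3c1. In all, 6 of the 17 member probes, or 35.3%, were called, 5 higher and 1 lower, beside 22.0% of all probes (14.7% higher and 7.26% lower). These probes belonged to 4 genes, beside 7139 of all 26420 genes. An unadjusted p under 0.05 was found for 8 probes of 6 genes, beside 34.0% of all probes. In 3 of 17, or 17.6%, the groups did not overlap, beside 5.06% of all probes. Both sets are wild-type mice, and colony, litter and the organ markers above cannot be told apart from the line.

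Sgk1 had the smallest adjusted p of the members. It read 10.97 to 11.73 with a median of 11.28 in ChREBPβ WT and 11.98 to 12.71 in total WT, with no overlap. The difference was 1.09 (SE 0.14, adjusted p = 2.36e-05) or 2.13-fold, and 0.82 to 1.27 in the wash batches. The order of the group means was ChREBPβ WT (11.34), ChREBPβ KO (11.49), total KO (11.82) and total WT (12.43), of which the first pair did not differ beyond its spread. With the liver mean as a covariate the difference was 1.13 (adjusted p = 0.00589), and with liver, kidney and epididymis 0.84 (adjusted p = 0.183).

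The Fkbp5 probes disagreed. A_52_P481493 (chr17:28574995-28575054) read 8.22 to 9.37 in ChREBPβ WT and 9.49 to 10.56 in total WT, with no overlap, and was 2.15-fold higher in total WT (SE of the log2 difference 0.19, adjusted p = 0.00037). A_66_P107081 (chr17:28634702-28634761) differed by 0.60 (SE 0.16, adjusted p = 0.00822). This dim probe (median raw intensity 108) is not listed in the array design under the RefSeq messenger given for the other probes. It may therefore report another transcript, which was not checked. The brightest, A_55_P1952379 (chr17:28536060-28536119), did not move in step, at -0.08 (SE 0.21, interval -0.51 to 0.35, adjusted p = 0.824). The mean of the 3 probes, A_66_P107081 included, was higher by 0.54 (adjusted p = 0.0153). The gene runs on the minus strand, so the brightest probe is the nearest to the 3′ end. None of the 3 shared 20 bases in a row with a probe of another gene on the array. The probe with the largest difference carries this sequence, shown so that the reader can place it on a transcript:
Fkbp5 A_52_P481493: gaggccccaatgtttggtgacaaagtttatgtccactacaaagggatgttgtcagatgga

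**Figure D4:**
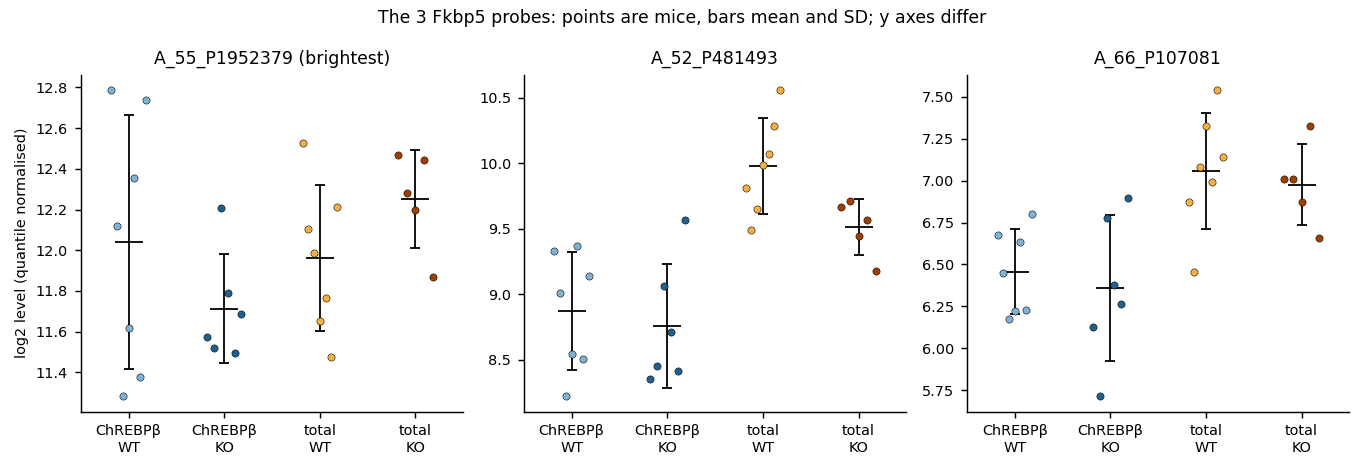
Log2 level of each of the 3 Fkbp5 probes (y axis, scales differ) in the 4 groups (x axis); points are mice, the long bar the mean and the error bar the SD. All total WT arrays lie above all ChREBPβ WT arrays for A_52_P481493, whereas for the brightest probe the groups overlap throughout.

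Cdkn1a was higher in total WT on its brightest probe by 0.86 (SE 0.20, adjusted p = 0.0038), where ChREBPβ WT read 9.23 to 11.32 and total WT 10.78 to 11.49. The gap was 1.61 and 1.38 in the first and second wash batches, 0.64 in the third and 0.05 in the last. The dim probe A_55_P1976204, well above background on 5 of 7 ChREBPβ WT arrays and on all arrays of the other groups, differed by 0.93 (adjusted p = 0.00161), and A_55_P1986282 by 0.02 (adjusted p = 0.857). With the liver mean as a covariate the brightest probe was at 0.46 and not called (adjusted p = 0.402), like both Fkbp5 probes (adjusted p = 0.0725 and 0.223). Nr3c1 was lower in total WT on A_55_P1967885 by 0.29 (-0.29, SE 0.06, adjusted p = 0.000837, no overlap) and not called on the other probe (-0.13, adjusted p = 0.381). Hsd11b1 was at -0.01 (SE 0.18, interval -0.39 to 0.37) between the wild types, and the liver markers differed there by a median of -4.74. How liver RNA bears on the Hsd11b1 level was not tested.

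The wider pathway was followed in lists of other genes, also chosen with earlier results known, each gene by its brightest probe. Counts stand beside the shares of all probes above. Those shares include dimmer probes and so are not a like base, and no share over brightest probes was computed. Among 30 further glucocorticoid-induced genes, 6 were called in the total ChREBP line, 4 higher and 2 lower (20%, median -0.07 against 0.02 over all probes). Pck1, the gluconeogenic and glyceroneogenic enzyme, rose by 2.47 (adjusted p = 1.38e-05), Pdk4, which blocks pyruvate dehydrogenase, by 0.70 (adjusted p = 0.000535), and the transcription factor Klf15 by 0.56 (adjusted p = 0.000986). Map3k6 also rose by 0.56 (adjusted p = 0.0291). Glul, glutamine synthetase, fell by 0.53 (adjusted p = 0.0182) and Lpin1, a phosphatidate phosphatase, fell by 0.35 (adjusted p = 0.00365). Like the members, these genes moved both ways. Between wild types 11 of the 30 were called, 8 higher and 3 lower in total WT (36.7%, median 0.14 against 0.05). The largest of those higher were Dusp1, a phosphatase of MAP kinases, at 1.08 (adjusted p = 0.000175) and Per1 at 0.82 (adjusted p = 0.000935). Those lower were Tat at -3.35 (adjusted p = 0.00095), Pck1 at -1.44 (adjusted p = 0.00123) and Anxa1 at -0.65 (adjusted p = 0.00118), of which Tat and Pck1 are strongly expressed in liver. The effect of the knockout differed between the lines for 3 of the 30: Pck1 at 2.52 (adjusted p = 0.00104), Klf15 at 0.67 (adjusted p = 0.00771) and Dusp1 at -1.06 (adjusted p = 0.0229).

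**Figure D5:**
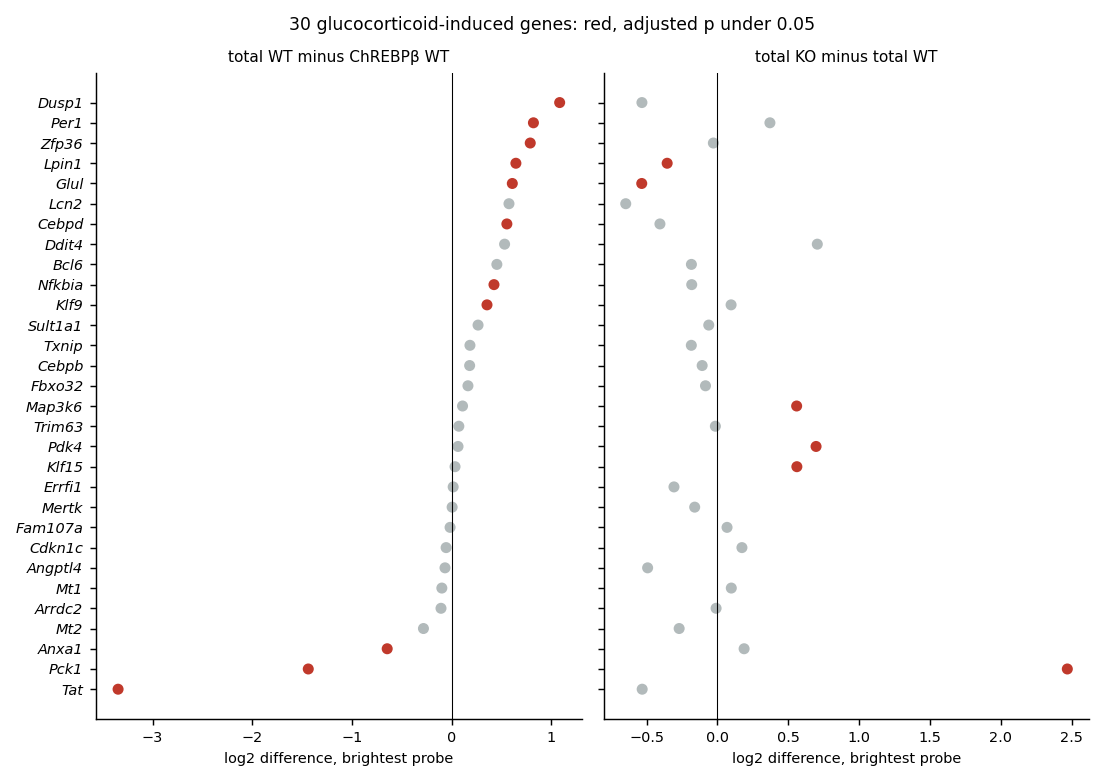
Log2 difference of the brightest probe (x axis, scales differ) for 30 glucocorticoid-induced genes other than the members (y axis, in the order of the left panel) between the wild types (left) and between total KO and total WT (right); red marks an adjusted p under 0.05. Of the 30 genes, 11 are red on the left and 6 on the right, with Pck1 at -1.44 and 2.47.

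The receptor machinery, 16 chaperones and cofactors, had 1 call in the total ChREBP line, the coactivator Ncoa2 at 0.29 (adjusted p = 0.0164; list median 0.06), and 4 between wild types, all higher in total WT, led by the immunophilin Fkbp4 at 0.38 (adjusted p = 0.00113; list median -0.02). Of 12 genes of steroid supply and clearance 9 were in the table. None was called in the total ChREBP line (median -0.22), whereas 5 were lower in total WT than in ChREBPβ WT (median -0.36), led by the hepatic corticosteroid carrier Serpina6 at -4.70 (adjusted p = 0.000222). H6pd, which supplies the cofactor of the Hsd11b1 enzyme, was lower by 0.36 there (-0.36, adjusted p = 0.00552). Of 10 measured inflammatory genes that glucocorticoids repress, Nos2 at 0.40 (adjusted p = 0.0282) was the only call in the total ChREBP line (median 0.07), and 0 were called between wild types (median -0.13).

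Of 11 measured genes linked to the mineralocorticoid receptor, Ndrg2 was the only call between wild types, at -0.91 (adjusted p = 1.8e-05; list median -0.04). Among 16 p53 targets other than Cdkn1a, 6 were called in the total ChREBP line, 4 higher and 2 lower (37.5%, median 0.07). Sesn2 and Bbc3, a stress sensor and an apoptosis activator, rose by 0.98 (adjusted p = 4.5e-06) and 0.96 (adjusted p = 5.42e-06), and Phlda3 and Gadd45a fell by 0.65 (adjusted p = 3.44e-06) and 0.95 (adjusted p = 0.000643). These 4 also differed in effect between the lines, with 0.74 (adjusted p = 0.00943), 0.82 (adjusted p = 0.00317), -0.80 (adjusted p = 5.13e-05) and -1.36 (adjusted p = 0.00084). Between wild types 2 of the 16 were called, Phlda3 at 0.27 (adjusted p = 0.00664) and Sesn1 at -0.26 (adjusted p = 0.0136). Of 22 measured paralogs of the members, Tsc22d1 at 0.49 (adjusted p = 0.00207) and Fkbp9 at 0.27 (adjusted p = 0.023) rose in total KO (list median 0.02), and 5 were called between wild types, with Sgk2, a kinase of liver and kidney, at -4.77 (adjusted p = 3.86e-05; list median 0.01). In the ChREBPβ line 0 genes were called in each of these lists by limma.

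Correlations within groups were taken over the 28 pairs of brightest probes, after group and wash batch were removed. By Pearson r none passed an adjusted p of 0.05 in a two-sided permutation test (25 arrays, 100000 permutations within groups). By Spearman rho Nr3c2 with Sgk1 did pass. The Pearson count ran from 0 to 6 when single arrays were left out, so the data do not settle whether members vary together. The strongest pair was Nr3c2 with Sgk1 (Pearson r = 0.62, permutation p = 0.00226, adjusted p = 0.0594; Spearman rho = 0.68, permutation p = 0.00054, adjusted p = 0.0151; r = 0.57 without the 2 arrays farthest from the Nr3c2 median, permutation p = 0.00759, adjusted p = 0.148). Tsc22d3 with Cdkn1a had r = 0.60 (permutation p = 0.00517, adjusted p = 0.0594), but a rho of 0.33 (permutation p = 0.154), and r = 0.56 without the 2 farthest arrays (permutation p = 0.0189). Tsc22d3 and Zbtb16, both higher in total KO, had r = 0.48 (permutation p = 0.00672, adjusted p = 0.0594; rho = 0.46, permutation p = 0.023) and 0.37 without the 2 farthest arrays (permutation p = 0.0645). Fkbp5 with Sgk1 had r = 0.52 (permutation p = 0.00848, adjusted p = 0.0594) and 0.29 without the 2 farthest arrays (permutation p = 0.194). Next came Hsd11b1 with Fkbp5 (r = 0.51, adjusted p = 0.0761) and Zbtb16 with Cdkn1a (r = 0.48, adjusted p = 0.0936). Pairs of the opposite sign were Nr3c2 with Tsc22d3 (r = -0.41, permutation p = 0.0369, adjusted p = 0.148) and Nr3c1 with Sgk1 (r = -0.43, permutation p = 0.0453, adjusted p = 0.158). For the latter rho was -0.48 (permutation p = 0.0261), and r was -0.39 without the 2 farthest arrays (permutation p = 0.0761).

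Among 16226 named genes, those whose levels were most like a member over the 25 arrays are given as a description, with the r of levels and then the r after group and wash batch were removed; the arrays of a group share its differences. Hsd11b1 was closest to Dennd2d (0.83, then 0.67), Aspg (0.80, then 0.33) and Gpx3 (0.80, then 0.64). Sgk1 was closest to Agpat3 (0.88, then 0.60), Xrcc6 (0.88, then 0.60) and Wapal (0.87, then 0.56). Tsc22d3 was closest to Ube2g2 (0.91, then 0.81), Kansl3 (0.85, then 0.68) and the adipocyte amine oxidase Aoc3 (0.84, then 0.84). Zbtb16 resembled Lpin3 (0.86, then 0.81), the insulin-regulated transcription factor Foxo1 (0.82, then 0.79) and Zhx3 (0.80, then 0.73). For Nr3c1 these were Hmgb1 (0.91, then 0.77), Wdfy3 (0.91, then 0.72) and Cep295 (0.91, then 0.79), and for Nr3c2 Nat9 (0.74, then 0.73), Ocel1 (0.74, then 0.68) and Zkscan5 (0.71, then 0.63). The brightest Fkbp5 probe went with Bbs2 (0.84, then 0.86), Trpm7 (0.83, then 0.86) and Tpt1 (0.83, then 0.84), and Cdkn1a with Zfp407 (0.82, then 0.60), Spry1 (0.82, then 0.50) and Dtx4 (0.80, then 0.53).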

How the data were processed

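Total RNA of pgWAT was labelled with Cy3 and hybridised by the authors to Agilent arrays, read with Feature Extraction 10.10.1.1 per the labels. The deposited series table holds log2 values, quantile normalised by the authors after a filter on spot flags, with the median over replicated probes; its 25 columns followed the log2 median intensity of their arrays (lowest r 0.99982), and 23 cells on non-uniform spots are empty. The deposited scanner files hold each spot's intensity, local background and flags and served for the alternatives. Background-inclusive intensities compress the differences of dim probes, and the number of arrays limits precision.

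Groups came from sample titles. limma 3.58.1 (R 4.3.3) was fitted on the series table with the 4 groups and wash batch (18 residual degrees of freedom), and p-values were adjusted by Benjamini-Hochberg over 40561 probes at 0.05. Each array was a separate animal. The members and gene lists were chosen with earlier results of these data known. Of each list, up to 4 genes per comparison with the largest called differences were named, plus genes a result turns on. Anxa1 was named besides, as the remaining induced gene lower in total WT than in ChREBPβ WT. The result of the mineralocorticoid-linked list in the total ChREBP line is not reported here. On simulated data for total KO against total WT (40538 probes), 90 of 100 probes changed by 1 and 53 of 100 changed by 0.5 on the log2 scale were found. Correlations used Python 3.11.15 and numpy 2.4.6. Promoters are RefSeq, GRCm38.p6.

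Alternatives were values rebuilt from the scanner files, processed signal scaled to the 75th percentile, normexp (offset 50) background correction, no filter on dim probes, only probes well above background everywhere, no wash batch, slide or replicate number as a block, array quality weights, only the groups compared, the mean over a gene's probes and leaving out each array. Organ markers as covariates were added after seeing the data.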

Additional observations from a re-analysis of the deposited data

How the results depend on the processing

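The count of called members in the total ChREBP line was 5 of 8, beside 3564 probes called in all. It became 3 with the replicate number as a block (2484 probes in all), where Zbtb16 (0.97, adjusted p = 0.136) and Sgk1 (-0.56, adjusted p = 0.0856) were lost. It became 2 with liver markers as a covariate (2326 probes in all). With liver, kidney and epididymis markers as covariates it was 1, Hsd11b1 (2737 probes in all). Both sets of covariates were chosen after seeing the data. Leaving out single arrays gave 3 to 5, with 3 without total KO replicate 4 (2890 probes in all). Between wild types the count was 4, became 0 with the 3 organ covariates, where 113 probes in all were called in place of 8912, and ran from 4 to 6 without single arrays. In the test between the lines it was 0 and became 1, Sgk1 (-0.83, adjusted p = 0.0194), with array quality weights; it ran from 0 to 1 without single arrays, with 1 without ChREBPβ KO replicate 2 (Zbtb16 at 1.38, adjusted p = 0.0381) and with Sgk1 called without ChREBPβ KO replicate 3, ChREBPβ WT replicate 1, total WT replicate 6 or total KO replicate 7. In the ChREBPβ line it was 0 under every setting, while probes called in all were 0 in the fit reported, 48 with array quality weights and 80 without ChREBPβ KO replicate 4. Only Hsd11b1 in the total ChREBP line kept its call in all 13 alternatives and all 25 fits without an array (-1.25 to -1.04 there). The dimmer Zbtb16 probe, whose adjusted p of 0.0494 lay at the threshold, lost its call in 6 of 12 alternatives and 16 of 25 fits without an array.

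Signs turned only for differences near 0 or for Fkbp5. Hsd11b1 between wild types became 0.0946 with scaled processed signal, 0.0802 with the replicate block, 0.0276 with array weights, 0.431 with the liver covariate and 0.387 with the 3 organ covariates (-0.0879 to 0.0848 without single arrays). Nr3c1 A_55_P2728068 in the test between the lines became 0.0373 without wash batch, 0.0887 with array weights and 0.0620 as the mean of its probes (-0.0986 to 0.0718 without single arrays), and between wild types 0.0720 with the 3 organ covariates. Cdkn1a in the test between the lines became 0.0879 with the replicate block (-0.284 to 0.0273 without single arrays). The Fkbp5 mean over probes was -0.0529 in the total ChREBP line and 0.543 between wild types (brightest probe -0.200 to 0.0942 without single arrays). Zbtb16 in the ChREBPβ line ran from -0.366 to 0.0203 without single arrays. By Pearson r, pairs of members correlated at an adjusted p under 0.05 numbered 0, 1 with deviations from the group mean only, and 0 to 6 without single arrays. The count of 6 came without ChREBPβ KO replicate 8. For the pathway lists, 291 of 329 counts under other settings stayed within 1.5 times the value given.

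The replicate numbers do not pair the arrays: of 29 pairs of same-numbered arrays from different groups, 10 had deviations correlated above 0.1 (median -0.01), against 74 of 204 other pairs. Apart from the losses named, the replicate block changed no called member gene. The cause of each change was not tested. In the simulation, made for total KO against total WT only, 53 of 100 probes changed by 0.5 were found. It changed 100 probes by each size, while 3564 were called in the data, and the adjusted threshold depends on that number. The share is therefore not the power of a comparison reported here. With 5 to 7 arrays a group, a missing call does not show that a member is alike in both groups.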
